A study of Mus musculus with 31 samples.

Results

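The nuclear genes of the respiratory chain and ATP synthase were examined in a map of accessible chromatin from NIH-3T3 cells, an established line of mouse embryonic fibroblasts. The genes were chosen by symbol alone, as nuclear protein-coding genes of the GENCODE annotation (mouse build mm10) whose names start with Nduf, with Sdh followed by a, b, c or d, with Uqcr, with Cox4 to Cox8 or with Atp5, a rule that uses no measured value. This gave 98 of 21938 nuclear protein-coding genes. Of these, 83 encode subunits of complexes I to V or their isoforms, and 15 encode assembly factors or paralogues that the same prefixes pick up, such as Ndufaf1 and Sdhaf2.

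The study used ATAC-seq, in which the transposase Tn5 inserts sequencing adapters into accessible DNA, to compare chromatin in NIH-3T3 lines overexpressing a transcription factor with control cells. Its labels list 31 samples: 26 overexpression libraries for 13 factors, 4 libraries of control cells carrying the rtTA3G activator, and 1 library of the parental line. The peak list of the parental line was analysed here, and the other 30 libraries were not. These were cells of the parental line grown in serum, and their labels name no transgene, agent or time point. The study's methods describe doxycycline, the inducer of the transgenes, for its ATAC-seq cells without saying whether the parental line also received it. The values below describe 1 library without replicates or a comparison between conditions. The list held 63456 peaks with a median width of 327 bp and a median of 29 fragments over the summit, and its lowest summit lay at 10 fragments. The fibroblast label was matched by promoter peaks, within 1 kb of a start, at 9 of 10 fibroblast genes (53.7% of all protein-coding genes had one), including Col1a2, Fn1 and Vim. The peak covered a start at 7 of the 9, and that of Thy1 was small, with 12 fragments and its summit 1015 bp from the start. None of 10 testis germ cell genes, none of 10 lung epithelium genes and 1 of 10 muscle genes (Ckm) had a promoter peak.

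The respiratory chain passes electrons from NADH (complex I) or succinate (complex II) through complex III to oxygen at complex IV, and complex V uses the resulting proton gradient to make ATP. Most of its subunits are encoded in the nucleus, where factors such as NRF1, the ETS factor GABP, YY1 and ERR alpha are known to bind many of their promoters. Several subunits of complex IV come as a ubiquitous form and as a form made mainly in lung, muscle or testis.

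Promoter stretches of 3 isoform pairs are shown first, because the most marked split among these genes ran between ubiquitous and tissue isoforms. Each runs 5′ to 3′ along the gene's strand, from 140 bases before the outermost annotated start to the first 30 bases from it, read from the GRCm38.p6 genome. The stretches are Cox4i1 at chr8:120668082-120668251 (plus strand), Cox4i2 at chr2:152754033-152754202 (plus strand), Cox8a at chr19:7217587-7217756 (minus strand), Cox8b at chr7:140900417-140900586 (minus strand), Cox7b at chrX:106015560-106015729 (plus strand), Cox7b2 at chr5:71548176-71548345 (minus strand). Capitals mark every CpG dinucleotide.
Cox4i1: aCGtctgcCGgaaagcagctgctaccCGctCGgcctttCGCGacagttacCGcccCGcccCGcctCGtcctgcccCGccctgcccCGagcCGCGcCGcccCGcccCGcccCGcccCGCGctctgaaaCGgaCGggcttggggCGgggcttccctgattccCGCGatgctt
Cox4i2: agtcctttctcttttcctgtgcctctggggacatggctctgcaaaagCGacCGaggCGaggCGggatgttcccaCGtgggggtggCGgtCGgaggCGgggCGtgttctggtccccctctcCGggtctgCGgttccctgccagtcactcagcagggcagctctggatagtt
Cox8a: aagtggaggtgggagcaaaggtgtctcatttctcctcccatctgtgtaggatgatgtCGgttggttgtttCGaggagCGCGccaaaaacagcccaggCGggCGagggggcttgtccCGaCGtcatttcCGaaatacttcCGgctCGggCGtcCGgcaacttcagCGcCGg
Cox8b: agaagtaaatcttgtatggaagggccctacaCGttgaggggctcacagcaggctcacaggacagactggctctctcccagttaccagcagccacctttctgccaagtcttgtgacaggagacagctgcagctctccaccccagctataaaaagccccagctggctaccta
Cox7b: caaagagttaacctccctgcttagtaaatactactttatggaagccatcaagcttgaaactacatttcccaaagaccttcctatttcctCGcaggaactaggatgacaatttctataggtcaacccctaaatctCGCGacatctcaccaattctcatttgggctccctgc
Cox7b2: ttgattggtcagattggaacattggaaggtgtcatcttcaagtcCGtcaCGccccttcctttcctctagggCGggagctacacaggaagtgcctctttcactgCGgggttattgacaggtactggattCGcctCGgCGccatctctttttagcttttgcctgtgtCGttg
Cox4i1, the ubiquitous form of subunit 4, had 25 CpG dinucleotides in this stretch, and its lung form Cox4i2 had 11. Cox8a, the ubiquitous form of subunit 8, had 15, and its muscle form Cox8b had 1. In the remaining pair the order was the opposite, with 3 in the ubiquitous Cox7b and 8 in the testis form Cox7b2. Cox7b2 was also the tissue isoform with a high peak, as described below.

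Promoter peaks, defined as peaks within 1 kb of an annotated start, were found at 89 of the 98 genes (90.8%), compared with the 53.7% of all protein-coding genes. Complex II (4 of 4) and complex III (8 of 8) were complete. Complex I had peaks at 35 of 36 genes and complex V at 16 of 17. Complex IV had 13 of 18, and the assembly factors and paralogues had 13 of 15. Outside the tissue and hypoxia isoforms the count was 87 of 90. Other definitions moved both the count and the background little. With peaks overlapping the start itself, 88 genes had one, where 48.7% of all coding genes did, and the shares of all coding genes were 52.0% at 500 bp (88 genes) and 56.5% at 2 kb (91 genes). With only the outermost start of each gene the count was 88 and the background 48.9%, and with starts of coding transcripts they were 89 and 52.0%. Stricter peaks gave 89 genes against 53.6% at a q-value of 0.01, 88 against 52.0% at 1e-05, and 87 against 48.8% at a fold enrichment of at least 5. With starts from RefSeq, 75 of the 78 symbols with an entry had a peak against 52.9% of all coding symbols with an entry, and 4 of the genes without a peak had no entry and dropped out.

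**Figure D1:**
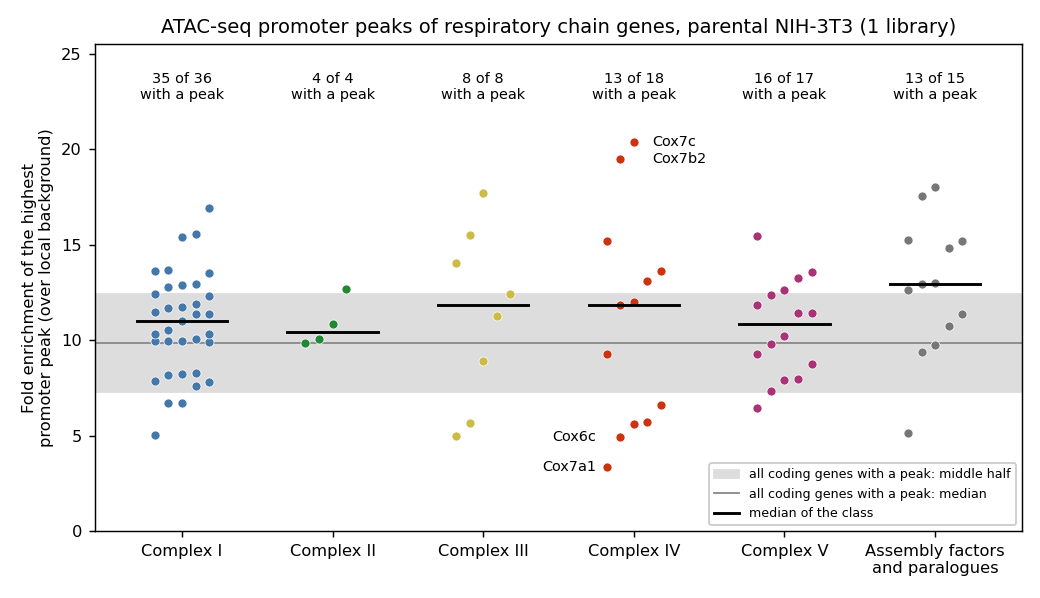
Fold enrichment over local background of the highest promoter peak of each gene (points, y axis) by complex (x axis), with the class median (black bars) and the median and middle 50% of all protein-coding genes with a promoter peak (grey line and band). The classes overlap widely, with medians between 10.4 (complex II) and 12.9 (assembly factors and paralogues), and complex IV holds both the highest value (Cox7c, 20.4) and the lowest (Cox7a1, 3.39).

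Peak height is given below as the fold enrichment at the summit over the local background, the value the peak caller wrote, together with the number of fragments over the summit computed from it. The median fold enrichment of the highest promoter peak was 11.4 for the 89 genes and 9.86 for all 11788 protein-coding genes with a promoter peak, a ratio of 1.15. In fragments over the summit the medians were 68 and 64, and in width 802 and 796 bp. Of the 89 genes, 60 lay above the median fold enrichment of all genes (67.4%). The respiratory genes thus differed little from other accessible promoters in height and width, and without replicates the differences of the medians have no error.

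Complex I, the NADH dehydrogenase, had 35 accessible promoters with fold enrichments of 5.02 to 16.9 (median 11.0). All 7 nuclear core subunits, which form the catalytic core, had a peak, with fold enrichments from 6.74 at Ndufs7 to 12.9 at Ndufv2, and with 11.4 at Ndufv1 and 10.3 at Ndufs3 between them. The median of the core subunits was 11.4 with 81 fragments, not below the 11.0 and 68 fragments of complex I as a whole. The highest single complex I peaks belonged to accessory subunits, which surround the core and are more numerous. Ndufb2 reached 16.9 with 107 fragments, and Ndufb5 reached 15.5 with 155 fragments, the most of any gene of the chain. The Ndufb5 peak was also a promoter peak of another coding gene. The lowest was Ndufb10 at 5.02 with 33 fragments. Fold enrichment and fragment number did not rank the genes alike: Ndufs8 and Ndufb6 had nearly the same fold enrichment (11.7 and 11.5) but 95 and 47 fragments.

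Complex I also held the one subunit gene of the chain that lacked a peak without being a tissue isoform or a duplicate annotation. Ndufa1 encodes a small membrane-arm subunit, lies on chromosome X and starts at position 37191163 on the minus strand. It starts 82 bp from the divergent gene Rnf113a1, and its promoter window had a CpG ratio of 1.01. No peak lay within 63885 bp of its start, the closest being the promoter peak of Nkap. The stretch without peaks spanned 626418 bp and held the starts of 28 protein-coding genes, 24 of them reproductive homeobox genes of the Rhox cluster. The other X-linked members had peaks: Ndufb11 reached a fold enrichment of 11.0 with 41 fragments, and Cox7b reached 5.73 with 42. Sequence copies elsewhere, from which reads were not kept unless they mapped uniquely, were searched for in the 1000 bases around the Ndufa1 start. They matched 176 of these bases, all from 3 to 178 bases after the start, at 92.6% identity or below, and left the bases before the start unmatched. The use of the Ndufa1 promoter in these cells was not measured here.

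Complex II, succinate dehydrogenase, was the most uniform class. The flavoprotein subunit Sdha had a fold enrichment of 12.7 with 54 fragments, the iron-sulfur subunit Sdhb 9.85 with 58, and the membrane anchors Sdhc and Sdhd 10.8 with 61 and 10.0 with 56. The 95% Poisson intervals of these fragment numbers overlapped for all 4 genes, from 40.6 to 70.5 for Sdha and from 46.7 to 78.4 for Sdhc. Such intervals cover counting error only.

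In complex III, the cytochrome bc1 complex, peak height spread more widely. The small subunit Uqcrb had 17.7, the core proteins Uqcrc2 and Uqcrc1 had 15.5 and 14.0, and the Rieske iron-sulfur protein Uqcrfs1 had 12.4. The hinge protein Uqcrh had 11.3 and Uqcrq 8.90. The small subunits Uqcr11 (5.68) and Uqcr10 (5.01) were lowest, with 43 and 33 fragments. The Uqcrh peak was the widest of the 89 at 2221 bp and also served the start of Lrrc41, the gene beside it on the opposite strand. The Uqcrb peak, too, was a promoter peak of another coding gene.

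In complex IV, cytochrome c oxidase, Cox7c had the highest fold enrichment of all the genes at 20.4, which exceeded 99.7% of all coding genes with a promoter peak, over 114 fragments. Subunits Cox5b (12.0, 92 fragments) and Cox5a (9.30, 44 fragments), which have no tissue counterpart in these lists, lay at percentiles of 71.3 and 44.4 in fold enrichment among accessible promoters. Cox6c, a small subunit with a peak at 4.93 over 19 fragments, lay at a percentile of 8.69 among accessible promoters.

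Isoforms of complex IV divided by where they are known to be used. All 7 ubiquitous isoforms had a promoter peak, and 2 of the 7 lung, muscle and testis isoforms did (28.6%), compared with 53.7% of all protein-coding genes. These 7 tissue isoforms all had a CpG ratio of 0.6 or below. Of all coding genes in that range 31.1% had a peak, a similar share. The ubiquitous and tissue sets do not pair gene by gene, because Cox8a has 2 tissue counterparts and the counterpart of Ndufa4 is a hypoxia isoform, described separately. The ubiquitous Cox4i1 had a peak of 638 bp with its summit 5 bp after the start, a fold enrichment of 5.60 and 31 fragments, against none for the lung isoform Cox4i2. The closest peak to Cox4i2 lay in an intron of the gene, 3092 bp from the start, with a fold enrichment of 8.15 and 41 fragments. For subunit 6a, Cox6a1 had 37 fragments at a fold enrichment of 6.61, and its heart and skeletal muscle form Cox6a2 had no peak within 30842 bp. For subunit 6b, Cox6b1 had 49 fragments (11.9-fold), and the testis form Cox6b2 had none within 12115 bp. For subunit 8, Cox8a had 121 fragments (13.1-fold), and neither the muscle form Cox8b nor the testis form Cox8c had a promoter peak. The peak nearest to Cox8b was small, with 17 fragments, and lay 2951 bp away.

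**Figure D2:**
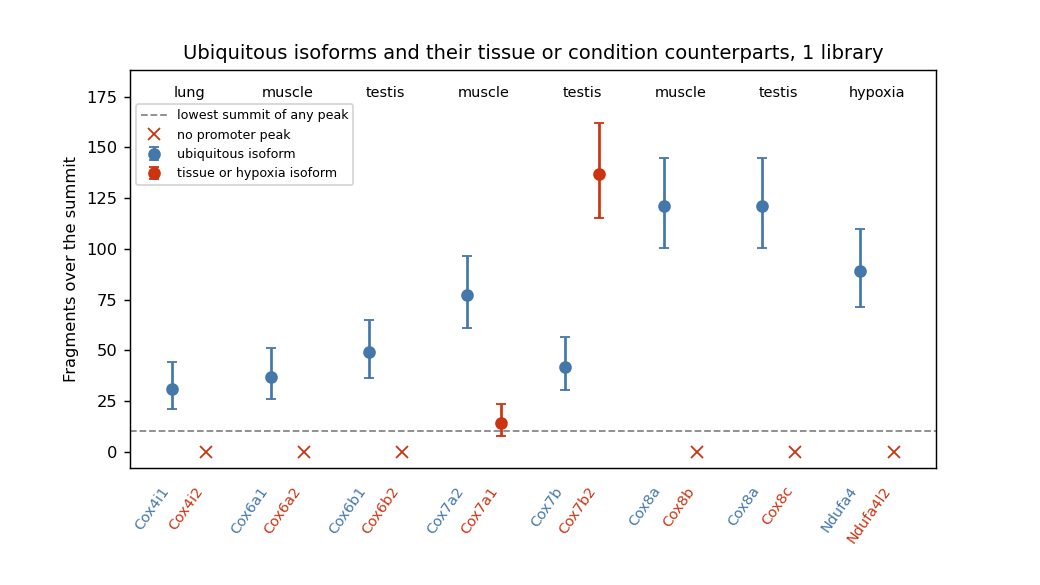
Fragments over the summit of the highest promoter peak (y axis, with 95% Poisson intervals) for ubiquitous isoforms (blue) and their counterparts known from the tissue or condition printed above (red), with crosses at 0 for genes without a promoter peak and a dashed line at the lowest summit in the list, 10 fragments. Cox8a is drawn beside both of its counterparts. Of the 8 red genes, Cox7a1 sits just above the line at 14 fragments and Cox7b2 at 137, above its ubiquitous partner Cox7b at 42.

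Both tissue isoforms with a peak departed from this division, in different ways. Cox7a1, the muscle form of subunit 7a, had a peak of 153 bp with 14 fragments (95% Poisson interval 7.65 to 23.5) and a fold enrichment of 3.39, below all but 1.88% of accessible promoters. Its ubiquitous counterpart Cox7a2 had 77 fragments (60.8 to 96.2) and a fold enrichment of 13.6. Cox7b2, the form of subunit 7b known from testis, had one of the highest peaks of the whole group, with a fold enrichment of 19.5, 137 fragments (115 to 162), a width of 901 bp and its summit at -121 bp from the start. It exceeded 99.5% of accessible promoters in fold enrichment, while its ubiquitous counterpart Cox7b on chromosome X had 42 fragments (30.3 to 56.8) and 5.73. The peak covered chr5:71547701-71548601, of which 9.43% was repeat-masked sequence, and the 1000 bases around the Cox7b2 start had no copy elsewhere in the genome. No testis germ cell marker had a promoter peak in this library, and whether Cox7b2 was transcribed was not measured here.

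NDUFA4 is a subunit of complex IV despite its name. Ndufa4 had a peak with a fold enrichment of 15.2 and 89 fragments, with its summit at -232 bp from the start. Its hypoxia-induced paralogue Ndufa4l2 had no peak within 1 kb, and the closest one, with 48 fragments and a fold enrichment of 7.50, ended 1832 bp upstream.

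Complex V, the ATP synthase, had peaks at 16 of 17 genes. All 5 genes of the catalytic F1 part were accessible, from Atp5e (15.4), Atp5b (13.6) and Atp5c1 (12.6) to Atp5a1 (9.81) and Atp5d (6.48). The 3 genes encoding the same subunit c, the rotor ring through which protons pass, had unlike peaks, with 13.3 and 119 fragments at Atp5g1, 9.29 and 43 fragments at Atp5g3, and 7.99 and 88 fragments at Atp5g2. At Atp5j the peak was 1803 bp wide with 138 fragments. It was shared with Gabpa, which encodes the DNA-binding subunit of GABP and starts beside Atp5j. The entry of complex V without a peak, ENSMUSG00000116933, is a second gene named Atp5o whose start lies inside the main Atp5o gene, 4204 bp from that gene's promoter peak (8.75-fold, 45 fragments).

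Assembly factors, which build the complexes without being part of them, had a median fold enrichment of 12.9 over the 11 of 12 Ndufaf and Sdhaf genes with a peak, the highest median among the classes on this scale. In fragments over the summit their median was 72, below the 80 of complex V. Ndufaf5 reached 18.0 with 96 fragments and Ndufaf7 17.5 with 95, both needed for the assembly of complex I. Each of these peaks was also a promoter peak of another coding gene. Ndufaf3 was lowest at 5.16. Sdhaf1, needed for the iron-sulfur clusters of complex II, had no peak within 1 kb of its GENCODE start, the closest ending 1174 bp away. Its RefSeq start lies under that same peak, chr7:30321635-30322721, with 70 fragments and a fold enrichment of 10.5, so its call turned on the annotation.

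These last cases mark the 1 kb limit. Just inside it was Ndufa13, whose only peak (11.7-fold, 59 fragments) began 576 bp from the start and had its summit 835 bp downstream. Just outside it were Sdhaf1 at 1174 bp and Ndufa4l2 at 1832 bp. Ndufa13 was also the only one of the 89 genes whose peak did not cover a start, and its RefSeq start lies 38 bp from that peak.

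**Figure D3:**
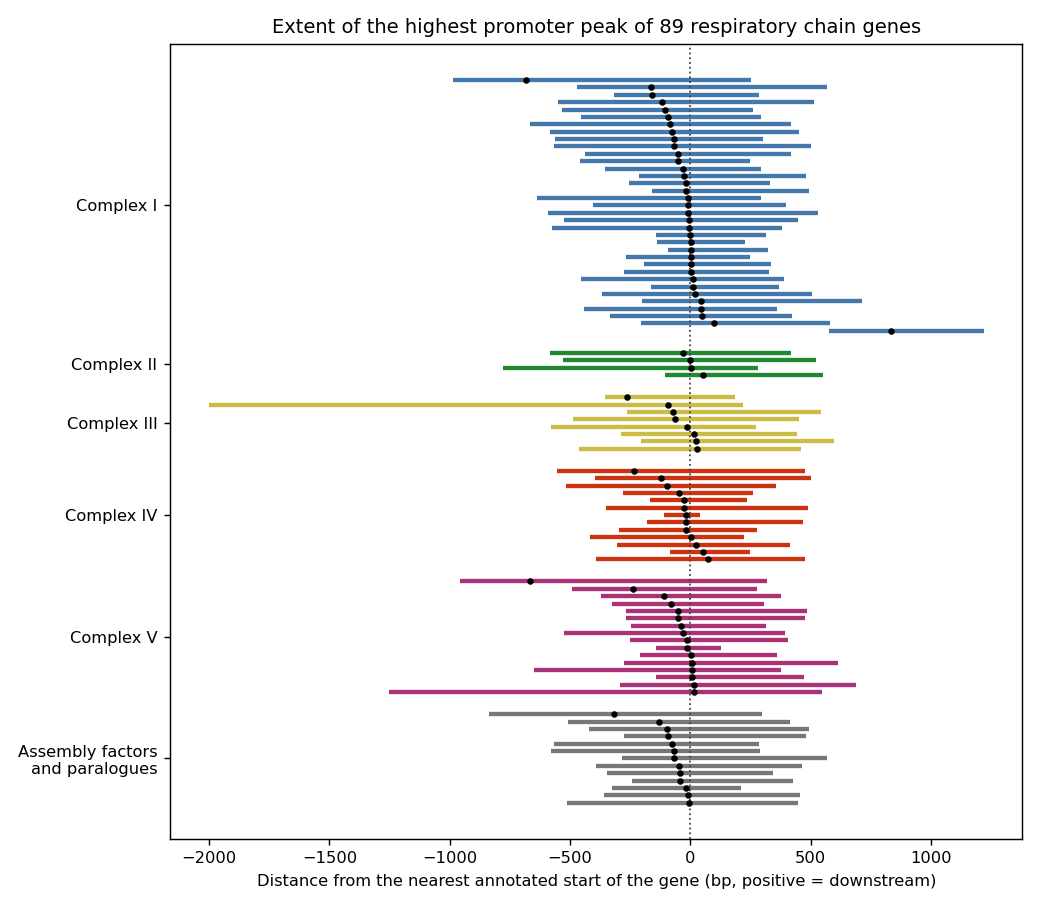
Extent of the highest promoter peak of each of the 89 genes (bars) and its summit (black dots), by distance from the gene's nearest annotated start (x axis, in bp), sorted within each class by summit position. Most bars span the start, with 75 summits within 100 bp of it, and the bar lying wholly downstream is Ndufa13.

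The position of the peaks was more regular than their height. The peak covered a start at 88 of 89 genes (98.9%), compared with 87.5% of all coding genes with a promoter peak. Its summit lay within 100 bp of the start at 75 genes (84.3%), compared with 61.7%, and the median distance of the summit from the start was 39 bp, compared with 69 bp. The median summit position was -19 bp from the start, compared with -37 bp for all coding genes with a peak. The share of summits upstream of the start was close to that of all coding genes with a peak, at 60 of 89 (67.4%, compared with 69.1%). The mitochondrial ribosomal protein genes, another set of nuclear genes for mitochondrial proteins, had a similar layout, with 84.6% of summits within 100 bp, as did 75.7% of proteasome subunit genes with a peak. Summits far upstream occurred at Ndufa11, at -683 bp, and at Atp5l, at -668 bp. A single promoter peak was the rule: 11 genes had 2 or more (12.4%, compared with 24.1% of all coding genes with a peak), of which Atp5d, Atp5g2 and Ndufb10 had 3. The share with 2 or more was also low for mitochondrial ribosomal protein genes (11.5%) and proteasome subunit genes with a peak (16.2%).

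Many of these promoters were shared. A divergent neighbour, meaning a gene on the other strand starting within 1 kb upstream, was annotated for 28 of the 98 genes (28.6%, compared with 10.8% of all coding genes). The neighbour was itself protein-coding for 23 (23.5%, compared with 6.79%). Among genes with a promoter peak the shares with a coding neighbour were 24.7% and 11.8%. By class the count was 3 of 4 in complex II, 3 of 8 in complex III, 8 of 36 in complex I, 2 of 18 in complex IV, 2 of 17 in complex V and 5 of 15 among the assembly factors and paralogues. The shortest distances were 10 bp between Ndufa7 and the ribosomal protein gene Rps28, 18 bp between Ndufb9 and Tatdn1, and 29 bp between Sdha and Ccdc127. Sdhd started 98 bp from Timm8b, which encodes a chaperone of the mitochondrial intermembrane space. At 35 of the 89 genes the highest promoter peak was also a promoter peak of another coding gene (39.3%, compared with 22.2%), so its fragments cannot be assigned to 1 of the genes. Mitochondrial ribosomal protein genes had similar shares, with 25.6% for a divergent neighbour, 23.1% for a coding one and 43.6% for a shared highest peak. Proteasome subunit genes had lower shares, with a divergent neighbour at 17.5%, a coding one at 6 of 40, and a shared peak at 24.3% of those with a peak.

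Genes without a peak were mostly poor in CpG. The CpG ratio, observed over expected CpG dinucleotides in the window from 250 bases before to 50 bases after the outermost start, had a median of 0.755 for the 98 genes and 0.525 for all protein-coding genes. It exceeded 0.6 at 67 of the 98 (68.4%, compared with 44.3%), and 66 of these 67 had a promoter peak, Ndufa1 being the exception. Of the 31 genes at 0.6 or below, 23 had a peak. Among all coding genes the corresponding shares with a peak were 82.2% and 31.1%. The 8 tissue and hypoxia isoforms all had ratios of 0.6 or below, with a median of 0.368, and the 7 ubiquitous isoforms a median of 0.833. When only genes with a promoter peak were compared, the medians were close, 0.800 for the respiratory genes and 0.744 for all. Height did not follow CpG ratio among the 89 genes (Spearman's rho of -0.070, given as a description, since neighbouring genes share peaks and all values share 1 library), and for all 11788 genes rho was 0.155. Cox4i1, with the CpG-rich stretch shown above, had a low peak, while Cox7c and Cox7b2 had the highest peaks at CpG ratios below 0.6.

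**Figure D4:**
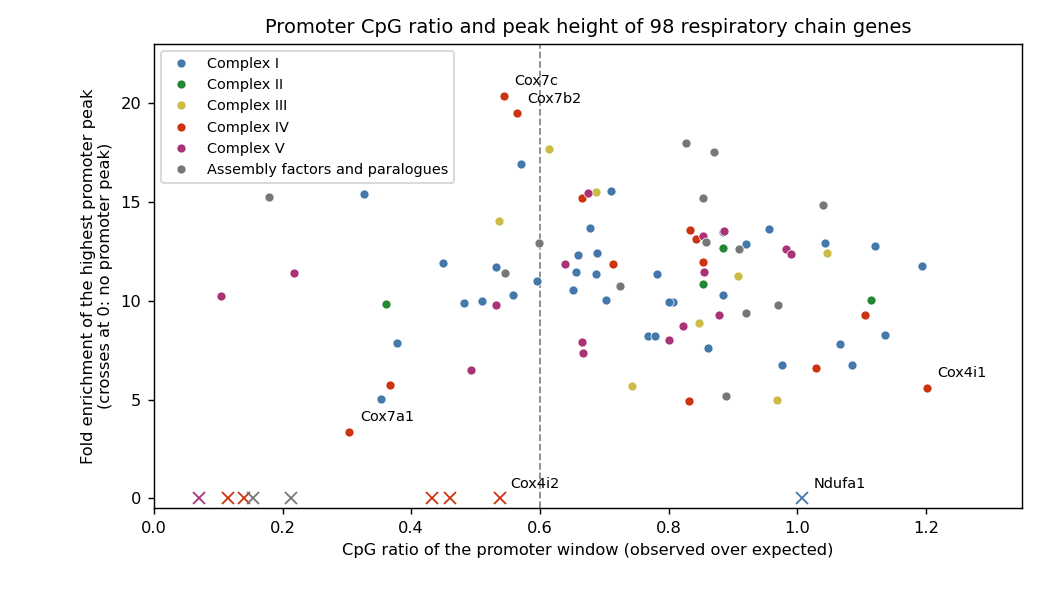
CpG ratio of the promoter window (x axis, observed over expected) and fold enrichment of the highest promoter peak (y axis) for the 98 genes, coloured by complex, with crosses at 0 for the 9 genes without a peak and a dashed line at a ratio of 0.6. Of the crosses, only Ndufa1 lies to the right of the line, and the points show no trend of height with CpG ratio.

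Promoter stretches with matches to the NRF1 or ETS motif are shown next, since NRF1 and GABP are the factors best known for binding respiratory gene promoters. They use the same 140 bases before and 30 bases from the outermost start, and are Cox6a1 at chr5:115348952-115349121 (minus strand), Uqcr11 at chr10:80406801-80406970 (minus strand), Ndufa6 at chr15:82354293-82354462 (minus strand), Ndufb9 at chr15:58933616-58933785 (plus strand), Sdhd at chr9:50603783-50603952 (minus strand), Ndufa1 at chrX:37191134-37191303 (minus strand). Capitals mark exact matches to GCATGCGC (NRF1) and CCGGAAG (ETS) on either strand, so that GCGCATGC and CTTCCGG are the same motifs on the opposite strand.
Cox6a1: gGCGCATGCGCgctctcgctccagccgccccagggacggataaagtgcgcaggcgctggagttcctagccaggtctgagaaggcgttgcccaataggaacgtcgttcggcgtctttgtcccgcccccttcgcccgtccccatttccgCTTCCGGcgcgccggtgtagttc
Uqcr11: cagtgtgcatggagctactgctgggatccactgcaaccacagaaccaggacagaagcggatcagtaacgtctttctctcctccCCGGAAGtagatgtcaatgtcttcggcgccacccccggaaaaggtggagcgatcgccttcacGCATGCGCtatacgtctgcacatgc
Ndufa6: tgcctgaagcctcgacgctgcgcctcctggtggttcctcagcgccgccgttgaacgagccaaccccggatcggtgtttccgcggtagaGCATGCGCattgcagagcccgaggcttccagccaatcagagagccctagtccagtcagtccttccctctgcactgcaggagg
Ndufb9: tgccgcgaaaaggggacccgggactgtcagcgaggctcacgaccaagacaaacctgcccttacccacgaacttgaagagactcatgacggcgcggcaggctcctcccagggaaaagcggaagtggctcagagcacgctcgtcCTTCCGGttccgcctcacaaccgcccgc
Sdhd: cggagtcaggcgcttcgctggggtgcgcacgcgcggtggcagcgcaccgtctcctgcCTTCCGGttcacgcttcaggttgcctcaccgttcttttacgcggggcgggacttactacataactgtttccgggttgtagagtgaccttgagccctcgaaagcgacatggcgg
Ndufa1: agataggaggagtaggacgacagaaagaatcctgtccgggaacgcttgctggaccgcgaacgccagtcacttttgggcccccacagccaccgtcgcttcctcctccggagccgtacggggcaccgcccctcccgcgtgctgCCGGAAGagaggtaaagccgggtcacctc
In Cox6a1 the NRF1 letters matched on both strands, shifted by 2 bases, which gave an unbroken run of capitals centred on -133 and -135, and the ETS match was centred 10.5 bases after the start. Uqcr11 had the order reversed, with ETS at -53.5 and NRF1 at 9. In Ndufa6 the NRF1 match at -48 lay 29 bases from the summit. Ndufb9 had ETS matches at 5.5 and 32.5, the latter outside the stretch shown. In Sdhd the ETS match at -79.5 was 47.5 bases from the summit, in the interval shared with Timm8b. Ndufa1 had its ETS match at 4.5, although no peak lay there.

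In windows from 250 bases before to 50 bases after the start, the NRF1 letters were found at 10 of the 98 genes (10.2%), at 3.71% of all protein-coding genes and at 5.34% of those with a promoter peak. The carriers came from every class: Ndufa6 and Ndufa11, Sdhb, Uqcr11, Cox6a1 and the testis isoform Cox8c, Atp5k and Atp5l, and the assembly factors Ndufaf4 and Ndufaf5. ETS letters were found at 19 genes (19.4%), compared with 10.8% of all coding genes and 17.4% of those with a peak. Among the 89 genes with a peak the share was 20.2%, little above that of other accessible promoters. The 22 ETS matches had a median centre 2.5 bases after the start, and 14 of the 21 with a summit to compare lay within 100 bp of it. None of the 8 tissue and hypoxia isoforms had an ETS match in these windows. Such a small set cannot tell this from the 10.8% of all coding genes. In the 500 bases to either side of the start, 1 of the 8 had a match (12.5%), compared with 19.2% of all coding genes.

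The YY1 motif AAGATGGCG, searched on both strands, was found at 4 genes (4.08%, compared with 1.70% of all coding genes and 2.95% of those with a peak), namely Ndufa2, Ndufa9, Atp5h and Ndufaf8. The ERR motif TCAAGGTCA was found at 2 genes, Sdhd and Atp5g3, or 2.04%, compared with 0.474% of all coding genes. GC boxes (GGGCGG, known for binding SP1) were found at 42.9% of the genes, 43.0% of all coding genes and 59.9% of those with a peak. The CCAAT box (CCAAT) was found at 38.8% and 39.0%, and TATA boxes (TATAAA) at 12.2% and 12.6%. CRE (TGACGTCA) was found at 4.08% and 2.43%, the E-box (CACGTG) at 8.16% and 7.75%, and the AP-1 motif (TGACTCA) at 2.04% and 4.59%, in each case for the 98 genes and for all coding genes. Among genes with a promoter peak, the shares for the respiratory genes and for all were 40.4% and 39.6% for CCAAT and 11.2% and 7.55% for TATA. They were 4.49% and 3.47% for CRE, 7.87% and 10.1% for the E-box, and 2.25% and 3.70% for AP-1. Each motif was searched on both strands, no motif contains another, and a match is a description of letters, not of binding. Among the respiratory genes the median fold enrichment was 8.26 for the 9 with an NRF1 match and a peak, and 11.4 for the 80 without a match. For ETS the medians were 10.7 for 18 genes and 11.4 for 71. Among all coding genes with a peak the order was the opposite, with 10.3 against 9.84 for NRF1 and 10.7 against 9.68 for ETS.

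**Figure D5:**
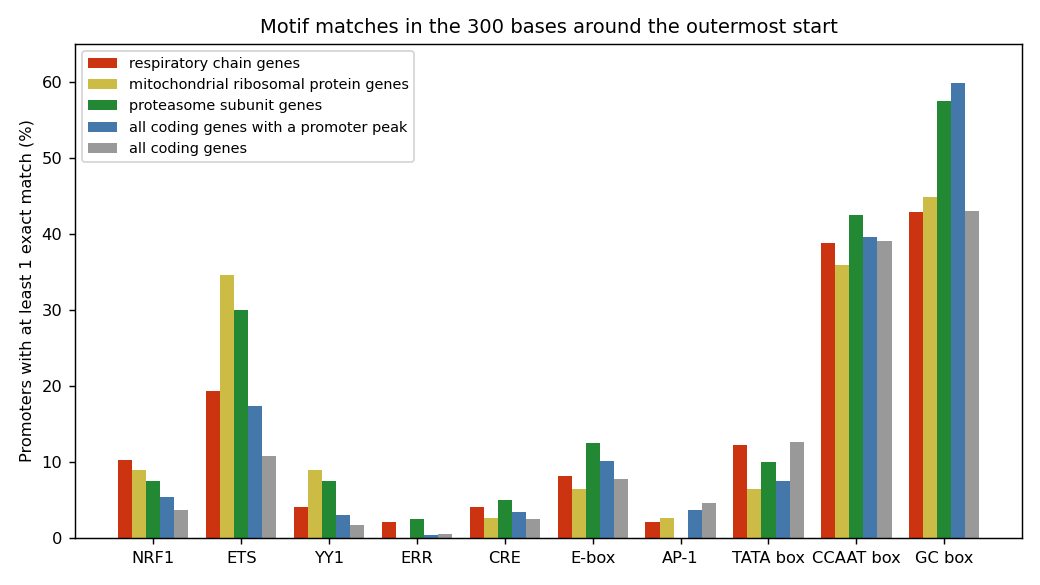
Share of promoters (y axis, in percent) with at least 1 exact match to each motif (x axis) in the 300 bases around the outermost start, for the respiratory chain genes (red), mitochondrial ribosomal protein genes (yellow), proteasome subunit genes (green), all coding genes with a promoter peak (blue) and all coding genes (grey). The red bar is the tallest for NRF1 at 10.2%, whereas for ETS the yellow bar (34.6%) and the green bar (30.0%) exceed the red bar at 19.4%.

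Other genes of the pathway, outside the symbol rule, were also mostly accessible. The counts that follow compare with promoter peaks at 53.7% of all protein-coding genes. Cyc1, the cytochrome c1 subunit of complex III, had a fold enrichment of 10.2 with 77 fragments, and somatic cytochrome c (Cycs) 16.9 with 118, while testis cytochrome c (Cyct) had no promoter peak. Of 34 other assembly factors for complexes I to V, 33 had a peak, from 4.40 at Uqcc2 to 17.3 at Tmem126b, and Coa3 had none. Of 15 regulators of respiratory and mitochondrial genes 14 had a peak, among them Nrf1 (8.02), Gabpa (12.4), Yy1 (12.1), Esrra (9.57) and Tfam (13.6), the mitochondrial transcription factor. The exception was Ppargc1a, the coactivator PGC-1 alpha, which is known for its induction in muscle, brown fat and liver. All 78 mitochondrial ribosomal protein genes had a promoter peak, as did 37 of 40 proteasome subunit genes. The 3 without were Psma8, known from testis, Psmb11, known from thymus, and the immunoproteasome gene Psmb8. ETS letters were found at 34.6% of the mitochondrial ribosomal and 30.0% of the proteasome promoters, compared with 19.4% of the respiratory chain promoters, and NRF1 letters at 8.97% and 7.50%, compared with 10.2%.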

How the data were processed

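ATAC-seq of parental NIH-3T3 cells was represented by 1 peak list. Per the submitters' notes and the study's methods, the authors aligned paired reads to mm10 with STAR 2.5.3a, kept uniquely mapped reads, removed duplicates with Picard and called peaks on whole fragments with MACS2 2.1.1.20160309. Reads from near-identical copies were therefore not kept, and a summit marks the middle of fragments rather than Tn5 cut sites. Peak calling is described by reference to the ChIP-seq data of the study, where peaks overlapping input or blacklisted regions were discarded. The deposited columns were fold enrichment (a ratio over the local background, from the authors' peak caller), −log10 p and q values, and a score equal to 10 times −log10 q in 99.998% of peaks. The methods give the reads per sample as a range over all libraries, so the depth of this library is not known exactly.

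Peaks within 1 kb of any GENCODE transcript start were assigned to that gene, and the highest by fold enrichment was described. Fragments over each summit were recovered by solving the deposited fold enrichment and −log10 p together under a Poisson model. They were whole within 0.02 for 99.997% of peaks, and the solver was tested on simulated data. Confidence intervals (95%, exact Poisson) cover counting error only. Starts listed by RefSeq were a second source, with an entry for 78 of the symbols. Copies elsewhere were searched for with BLAST 2.17.0 (at least 75 bases, 85% identity). Python 3.11.15, pandas 2.3.3, pysam 0.24.0 and SciPy 1.17.1 were used. With 1 library, no test between groups was made.

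The named genes were members of the symbol rule with an isoform class, the highest and lowest peaks in each class, members without a peak, and members of lists for carriers, assembly factors, regulators and markers. The values of some members are not reported here. The symbol rule uses no measured value, but the group of genes and the lists were proposed with earlier results of these data known. A gene without a peak lies below the caller's threshold, which does not show closed chromatin.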

Additional observations from a re-analysis of the deposited data

How the results depend on the processing

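The count of 89 genes with a promoter peak stayed between 87 and 91 under 8 other settings of peak threshold, distance and start. A q-value of 1e-05 left 88 (without Cox7a1), and a fold enrichment of at least 5 left 87 (without Cox6c and Cox7a1). Either setting left 1 lung, muscle or testis isoform with a peak, Cox7b2, in place of 2. Requiring overlap with the start, or 500 bp, lost Ndufa13, and 2 kb gained Ndufa4l2 and Sdhaf1. The outermost start alone lost Cox7a2l and moved the median summit position from -19 to -7 bp. With RefSeq starts, chosen after seeing the data, 75 of 78 symbols had a peak, all but Cox6b2, Cox8b and Ndufa1. The share among all coding symbols with an entry was 52.9%. Another 4 genes without a peak had no RefSeq entry and dropped out of this count, which raises its share. The subunits alone gave 76 of 83. Most motif counts followed the window searched. Within 50 bases of the 89 summits, NRF1 letters were found at 8 (8.99%, against 2.22% of all coding genes with a peak). ETS letters were found at 13 (14.6% against 10.7%) and YY1 letters at 3 (3.37% against 1.43%). In the 500 bases to either side of the 98 starts, NRF1 was found at 14 (14.3%, against 5.55% of all coding genes) and CRE at 6 (6.12% against 3.32%). Among genes with a promoter peak, these shares were 14.6% against 7.91% and 6.74% against 4.62%. Around the summits of the 89 genes (50 bases to either side), the counts were 24 for the GC box (27.0%, against 39.4% of all coding genes with a peak), 21 for CCAAT (23.6% against 23.9%), 1 each for ERR (1.12% against 0.0424%), the E-box (4.59% of all), AP-1 (4.14%) and TATA (1.45%), and 0 for CRE (1.87%). In the 500 bases to either side of the 98 starts they were 72 for the GC box (73.5%, against 60.4% of all coding genes), 59 for CCAAT (60.2% against 70.6%), 32 for ETS (32.7% against 19.2%), 26 for TATA (26.5% against 32.3%), 15 for the E-box (15.3% against 17.0%), 14 for YY1 (14.3% against 3.56%), 12 for AP-1 (12.2% against 12.1%) and 10 for ERR (10.2% against 1.87%). Among genes with a promoter peak, the shares in this wider window were 74.2% for the respiratory genes against 81.0% for all for the GC box. They were 59.6% against 67.9% for CCAAT, 33.7% against 29.4% for ETS and 24.7% against 22.4% for TATA. For the E-box they were 14.6% against 21.1%, for YY1 15.7% against 6.06%, for AP-1 13.5% against 10.4% and for ERR 11.2% against 1.54%. No paired analysis was possible because the values come from 1 library. A single library gives no error for any difference between genes beyond counting error.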
